A study of Mus musculus with 69 samples.

Results

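Promoter accessibility was set against expression in wild-type (WT) mouse embryonic stem cells (ESCs). The members were 15199 protein-coding genes, out of 16263 gene symbols in the deposited mRNA-seq count table, that could be placed on the mm10 genome. A gene was called open when an ATAC-seq peak of both WT libraries lay within 500 bp of the same annotated transcription start site (TSS), and its peak strength was the largest fold enrichment found there, averaged over the 2 peak lists. Expression was the mean of the 2 WT mRNA-seq libraries in counts per 1000000 counts of the table (CPM), which is not corrected for transcript length, and genes were ranked by it into 10 groups of about equal size (deciles, 1 the lowest).

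The cells were J1 ESCs, a male line of strain 129S4/SvJae taken from the inner cell mass of a blastocyst, without editing. They had been grown on feeder cells and passaged without feeders before harvest. One comparison also used 2 ATAC-seq libraries each of Mut18 and Mut43, H3.3K27R clones of the same line in which lysine 27 of the histone variant H3.3 was replaced by arginine. Each mutant line is 1 clone, no line was treated, and the labels do not say whether the 2 libraries of a line came from separate cultures.

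In ATAC-seq, the transposase Tn5 inserts sequencing adapters into DNA that is not wrapped in nucleosomes, so reads pile up over active promoters and enhancers. Most mammalian promoters of housekeeping genes lie in CpG islands, stretches rich in the CG dinucleotide that tend to be free of nucleosomes in many cell types, while promoters of tissue-specific genes are often poor in CpG. ESCs keep many developmental regulators silent under Polycomb proteins on CpG islands, and silence many germline genes by DNA methylation.

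The 2 WT mRNA-seq libraries held 15111140 and 15143998 counts and ranked the genes alike (Spearman's rho 0.993 over 15199 genes). The 10 ESC markers, among them Pou5f1, Sox2 and Nanog, were all detected, at 54.9 to 841 CPM. Of 10 markers of fibroblasts, the usual feeder cell, 10 were detected in the first library and 9 in the second (Lum was at 0), with summed levels of 286 and 201 CPM. Of 8 markers of differentiated cells 5 were in the table, with 19.2 CPM summed in each library.

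The first WT peak list held 78536 peaks and the second 67416. Of these, 21.2% and 24.0% lay within 500 bp of a TSS of a member. These promoter peaks were wider than the others, with median widths of 638 against 285 bp in the first list and 518 against 258 bp in the second. For every peak of both lists, the fold enrichment and p-value together gave back a whole number of overlapping fragments at the summit (the pileup) and the local background against which it was called. Fold enrichment is the pileup plus 1 over the local background plus 1. The lowest background in each list, taken as the genome-wide background, was 3.36 fragments in the first and 2.06 in the second. Pileups and local backgrounds are given below relative to it, so that the lists can be averaged. Fold enrichment was higher in the second list at 84.7% of open genes (median ratio 1.11), and the lists ranked the open genes alike (rho 0.949 over 13285 genes).

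The promoters of 4 genes, picked because expression and promoter peak went apart in them, are printed here. Each is the 250 bases before the reference TSS, on the gene's own strand, read from the RefSeq sequence of GRCm38.p6 (the build called mm10), with CG dinucleotides in capitals. Actg1 (chr11:120348543-120348792, minus strand) and Pou5f1 (chr17:35505768-35506017, plus strand) were highly expressed without one, and Spef2 (chr15:9748869-9749118, minus strand) and Saxo2 (chr7:82648524-82648773, minus strand) had strong peaks with almost no mRNA.
Actg1: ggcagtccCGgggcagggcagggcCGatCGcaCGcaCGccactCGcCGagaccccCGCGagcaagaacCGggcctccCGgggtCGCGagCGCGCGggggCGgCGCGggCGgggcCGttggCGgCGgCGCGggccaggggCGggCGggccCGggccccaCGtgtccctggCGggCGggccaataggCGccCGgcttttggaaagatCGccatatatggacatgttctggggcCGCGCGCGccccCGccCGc
Pou5f1: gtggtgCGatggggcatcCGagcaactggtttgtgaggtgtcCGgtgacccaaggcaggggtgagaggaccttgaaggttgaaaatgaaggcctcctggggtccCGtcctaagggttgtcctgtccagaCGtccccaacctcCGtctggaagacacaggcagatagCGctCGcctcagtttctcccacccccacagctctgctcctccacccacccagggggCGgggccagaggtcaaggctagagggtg
Spef2: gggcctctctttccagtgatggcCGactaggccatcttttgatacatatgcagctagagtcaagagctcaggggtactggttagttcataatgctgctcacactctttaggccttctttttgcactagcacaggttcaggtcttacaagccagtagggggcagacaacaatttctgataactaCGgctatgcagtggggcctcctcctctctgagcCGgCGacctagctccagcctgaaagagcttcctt
Saxo2: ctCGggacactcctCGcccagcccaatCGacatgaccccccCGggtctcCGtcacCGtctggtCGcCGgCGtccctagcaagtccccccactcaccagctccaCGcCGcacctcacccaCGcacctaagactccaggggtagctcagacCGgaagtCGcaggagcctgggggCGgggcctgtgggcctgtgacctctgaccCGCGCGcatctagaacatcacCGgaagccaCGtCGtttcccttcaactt
These stretches hold 40 CG in Actg1, 9 in Pou5f1, 4 in Spef2 and 21 in Saxo2. The gene with the most CG was without a peak, and the gene with the fewest had one of the strongest peaks of all. These cases are not typical. Over all genes, 96.6% of CpG-rich and 60.4% of CpG-poor promoters (classes defined below) were open, and 97.1% of the highest decile was open.

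Of the 15199 genes, 13285 (87.4%) were open. Another 1471 (9.68%) had no peak within 500 bp in either list, 396 (2.61%) had one in the first list only, 41 (0.270%) in the second list only, and 6 had peaks of the 2 lists at different TSSs. At 12089 genes a peak of each list overlapped a TSS itself. The limit of 500 bp decided few genes, since 80 had their nearest peak 401 to 500 bp away and 76 had it 501 to 600 bp away.

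The open share rose steeply over the lowest deciles and then stayed level. It was 50.8% in the lowest decile (770 of 1515 genes, median 0.231 CPM), 67.6% in the second, 81.8% in the third and 91.4% in the fourth. From the fifth decile up it lay between 94.9% and 98.4%, and in the highest decile (median 246 CPM) it was 97.1% (1476 of 1520). The share was thus not highest among the most strongly expressed genes. In the first list alone the lowest and highest deciles had 57.6% and 98.0%, and in the second list alone 51.4% and 97.2%, so the difference between the deciles was far larger than that between libraries.

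**Figure D1:**
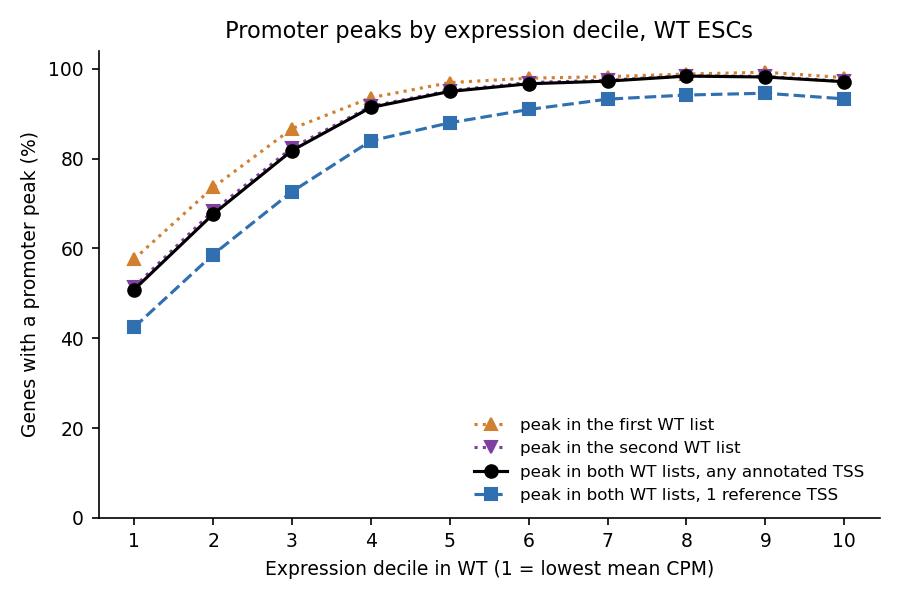
Share of genes with a promoter peak (y axis, percent) by WT expression decile (x axis), for a peak in both WT lists at any annotated TSS, in both lists at 1 reference TSS, and in each list alone. The share in both lists rises from 50.8% to 98.4% in the eighth decile, and is 97.1% in the tenth.

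Genes with more annotated starts had more chances of a peak, and the mean number of TSSs rose from 3.20 per gene in the lowest decile to 6.67 in the highest. With 1 reference TSS per gene, the open share went from 42.4% to 93.3%. Among genes with a single annotated TSS it went from 39.3% to 93.8%. Of the 770 open genes of the lowest decile, 96 (12.5%) had their peak within 500 bp of a TSS of another protein-coding gene. For 41 (5.32%) such a gene was of deciles 6 to 10, against 10.8% of open genes in the highest decile. Without genes that have another gene's TSS within 1000 bp, the open share was 48.1% in the lowest decile and 96.9% in the highest. Ranked by CPM per kb of exon, the lowest decile was open at 59.1% and the highest at 96.8%. In these bulk samples a gene expressed in few cells cannot be told apart from one expressed weakly in all, which bears on every low decile.

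Among open genes, fold enrichment was nearly unrelated to expression, while the pileup rose with it. Spearman's rho of expression with fold enrichment was 0.057 over 13285 genes (0.045 in the first list and 0.068 in the second), and with the pileup 0.331 (0.323 and 0.328). With expression per kb of exon these were 0.024 and 0.335. Genes share libraries and neighbourhoods and are not independent replicates, so these values are descriptions. Pileup and local background were those of the peak with the gene's largest fold enrichment, at any annotated TSS. The number of TSSs rose with expression, and the pileup was not set against expression at the reference TSS alone. The part of TSS number in the rise of the pileup was thus not tested. The median fold enrichment was 7.46 in the lowest decile, reached 8.80 in the seventh and was 7.88 in the highest. The median pileup, averaged over both lists, rose at each decile, from 18.6 to 29.3 times the genome-wide background, or from 57 to 86 fragments in the first list and from 42 to 68 in the second. In the first list alone it was 84 fragments in both the eighth and the ninth decile.

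The local background, which divides the pileup in the fold enrichment, was also higher around expressed genes. Its median went from 2.10 times the genome-wide background in the lowest decile to 3.37 in the highest, with a rho of 0.252 with expression. The sources used here state no control library for ATAC-seq, so this background may come from the same reads as the pileup. Pileup and local background thus cannot be taken as independent measures. Both WT lists gave the same shape, with fold enrichment highest in the seventh decile, and pileup and local background highest in the tenth. The median peak width rose from 529 to 711 bp. Split at the seventh decile, expression and fold enrichment had a rho of 0.147 over deciles 1 to 7 and of -0.128 over deciles 7 to 10, where the pileup had 0.081.

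**Figure D2:**
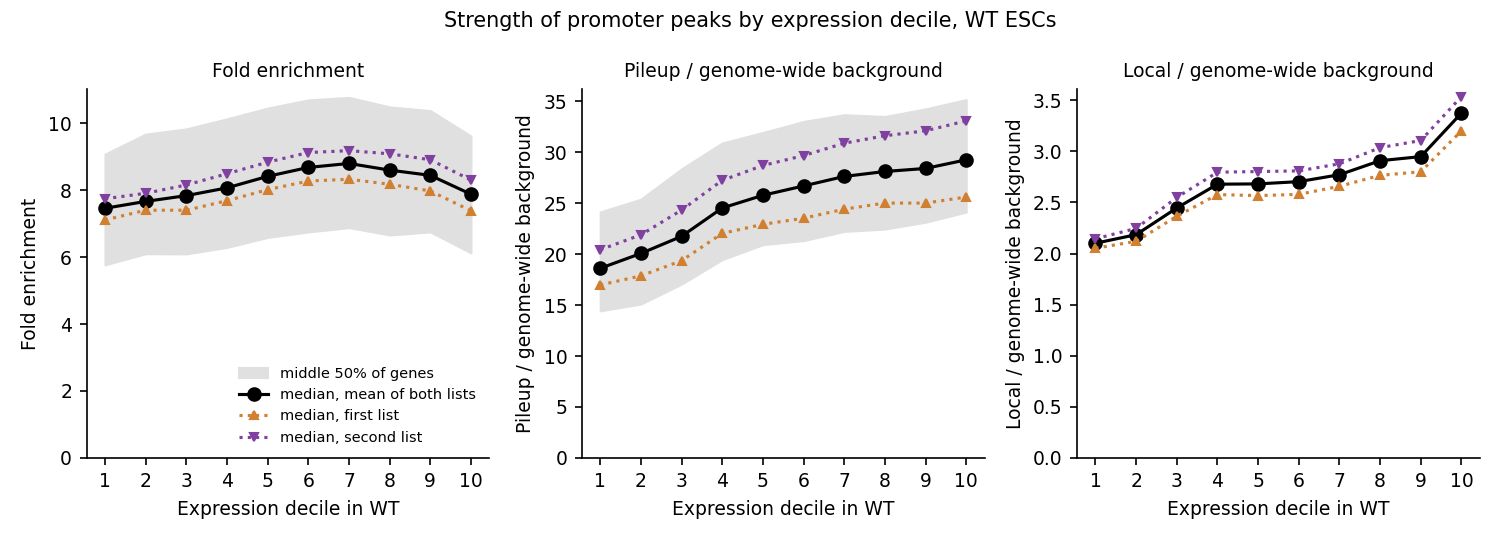
Median fold enrichment, pileup and local background of promoter peaks (y axes, the last 2 as multiples of the genome-wide background) by WT expression decile (x axis), for open genes, with the medians of each list and, in the first 2 panels, the middle 50% of genes shaded. Fold enrichment peaks at 8.80 in the seventh decile while pileup rises to 29.3 and local background to 3.37 in the tenth.

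Read the other way, open genes were sorted into 5 groups of equal size by each measure. The group with the largest fold enrichment (10.7 to 20.2) had a median expression of 24.5 CPM and the group with the smallest (2.63 to 6.04) had 16.8 CPM. Sorted by pileup, the medians were 38.5 CPM in the top group and 4.78 CPM in the bottom group. The bottom group by pileup drew 14.7% of its genes from the lowest decile, and the top group 1.99%. By local background the medians went from 7.97 to 34.4 CPM.

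The turn at high expression was clearest in the most abundant mRNAs. For these ranks, chosen after the decile values were seen, the 100 genes with the highest CPM were open at 90.0%, with a median fold enrichment of 5.84, a pileup of 30.3 and a local background of 4.66. Ranks 1001 to 1520 were open at 98.3%, with 8.55, 29.2 and 3.12. The pileup thus hardly differed between these groups, while the local background was higher in the first. Those of the 100 genes that were not open included the ribosomal protein genes Rpl12, Rpl19, Rpl23a, Rpl8, Rps4x, Rps23 and Rps12. Counts of this family are uncertain, for the reason given below, and its part in these values was not tested.

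The 5 most highly expressed open genes were Eef1a1, which brings aminoacyl-tRNAs to the ribosome, Npm1, a nucleolar chaperone, the heat shock proteins Hsp90ab1 and Hspa8, and the glycolytic enzyme Gapdh. Eef1a1 had 12977 and 12771 CPM in the 2 libraries, with fold enrichments of only 3.54 and 3.82. Its pileups of 100 and 82 fragments stood over local backgrounds of 27.5 and 20.7. Npm1, with 6402 and 6510 CPM, had fold enrichments of 6.12 and 5.91 and pileups of 105 and 74. All 5 had pileups above the medians of the highest decile in both lists and fold enrichments below its median.

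Taking the larger of both lists' values for each gene, the smallest fold enrichments of the highest decile were those of Rpl10a (2.49 and 2.77), the proto-oncogene Mycn (2.82 and 2.96), the zinc finger gene Zscan10 (3.07 and 3.12), Gapdh (2.90 and 3.28) and Ptma (3.17 and 3.36), which encodes prothymosin alpha. Their mean local backgrounds lay between 8.36 and 11.3 times the genome-wide level. Ptma had pileups of 112 and 87, above the medians of its decile. Rpl10a had pileups of 73 and 56, below them.

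Of the highest decile, 29 genes had no promoter peak in either list. The 5 with the highest CPM were the cytoskeletal actin gene Actg1 (3282 and 3485 CPM), the translocation factor Eef2 (2928 and 2912), and the ribosomal protein genes Rpl23a (1609 and 1607), Rpl8 (1235 and 1342) and Rps4x (1248 and 1262). Reads on Rpl and Rps genes are uncertain, since these genes have many near-identical processed copies and the sources used here do not give the counter's treatment of reads with several placements. The promoters of Actg1, Eef2 and Rpl8 were CpG-rich. Peaks of both lists were first met 1378 bp from a TSS of Actg1, 1293 bp from Eef2, 2228 bp from Rpl23a and 3769 bp from Rpl8, but 19661 bp from Rps4x.

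Local background could be read at these genes only from peaks nearby. Within 5000 bp of the reference TSS, 22 of the 29 genes had a peak in the first list and 22 in the second, and the nearest one had a median background of 5.52 times the genome-wide level in the first list and 6.34 in the second. Open genes of the decile had 3.26 and 3.61. Around Actg1 the values were 9.67 and 9.66, around Rpl23a 10.3 and 10.6, and around Rpl8 6.24 and 7.02. Eef2 had a nearby peak in the second list only, at 5.66, and Rps4x in the first only, at 2.15, below the median of open genes. Its part in the missing calls was not tested.

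Taking the smaller of both lists' values for each gene, the largest fold enrichments of all members were at genes that differed widely in expression. They were Spef2, a gene of the sperm flagellum (19.3 and 19.5), Cr2, which encodes a complement receptor (18.4 and 21.9), Phf21a, a histone reader of the LSD1 complex (18.4 and 21.6), Dlat, a subunit of pyruvate dehydrogenase (19.01 and 18.2), and Wdr17 (18.1 and 18.1). Dlat had 126 and 128 CPM and Phf21a 56.9 and 58.6, while Wdr17 had 2.45 and 1.72, Cr2 0.926 and 0.396, and Spef2 0.265 and 0.528. Dlat was CpG-rich at its reference TSS and the other 4 were CpG-poor. For Dlat and Wdr17 that class describes another site than the ranked peak. Their summits in the first list lay at 12705 and -5802 bp relative to the reference TSS (negative is upstream). At Phf21a the summit lay at 582 bp, outside the 500 bp to each side on which its class rests. Local backgrounds were 1.00 to 2.20 times the genome-wide level, and for 4 of the 5 genes below the median of open genes in every decile.

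Within the lowest decile, the strongest peaks by the same measure were those of Spef2, of Saxo2, which encodes a protein of ciliary microtubules, of the kinase gene Nek10, of Fstl5 and of the glutathione transferase gene Gsto2. Their fold enrichments ranged from 16.2 to 19.5 over both lists and their CPM from 0.066 to 0.528. Saxo2 shared its peak with a TSS of a gene of deciles 6 to 10, and the other 4 did not. The peak of Nek10 lay 494 bp from its TSS, close to the limit. A level of 0.199 CPM corresponds to 3 counts, so expression in this decile rests on a handful of reads, with a median 1.67-fold difference between the 2 libraries against 1.03-fold in the highest decile.

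Promoter CpG content went along with both expression and openness. A promoter was called CpG-rich when the 1000 bp around its reference TSS had an observed over expected CpG of at least 0.75 and a GC content of at least 55%, and CpG-poor when that ratio was under 0.48. CpG-rich promoters made up 8.84% of the lowest decile and 61.6% of the highest, and CpG-poor ones 65.3% and 5.79%. Over all 15199 genes, CpG observed over expected and expression had a rho of 0.496. Of all CpG-rich genes 96.6% were open (5316 of 5501), of the intermediate ones 95.3% (5759 of 6040), and of CpG-poor ones 60.4% (2210 of 3658).

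CpG-rich genes were mostly open even where their mRNA was near 0. In the lowest decile 85.1% of them were open (114 of 134), and 82.4% of the intermediate class, against 33.7% of CpG-poor genes (333 of 989). The open share of CpG-poor genes rose to 65.5% in the third decile, 84.1% in the fifth and 95.9% in the ninth, and was 87.5% in the highest (77 of 88). In the highest decile 98.3% of CpG-rich genes were open. The difference between the lowest and highest decile was thus larger among CpG-poor than among CpG-rich promoters. When the peak had to lie at the reference TSS that sets the class, 47.7% of the CpG-poor genes of the highest decile were open. The matching share of the lowest decile is not given here, so the size of that difference holds only for peaks at any annotated TSS.

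The class depends on which start is taken as the reference. Gapdh, CpG-poor at its reference TSS, has 10 annotated TSSs. With the class taken instead from each gene's TSS with the most CpG, a choice made after these values were seen, 32 genes of the highest decile were CpG-poor, of which 71.9% were open, and 884 of the lowest decile, of which 28.3% were open. CpG-rich genes of the lowest decile were then open at 88.0% (154 of 175).

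**Figure D3:**
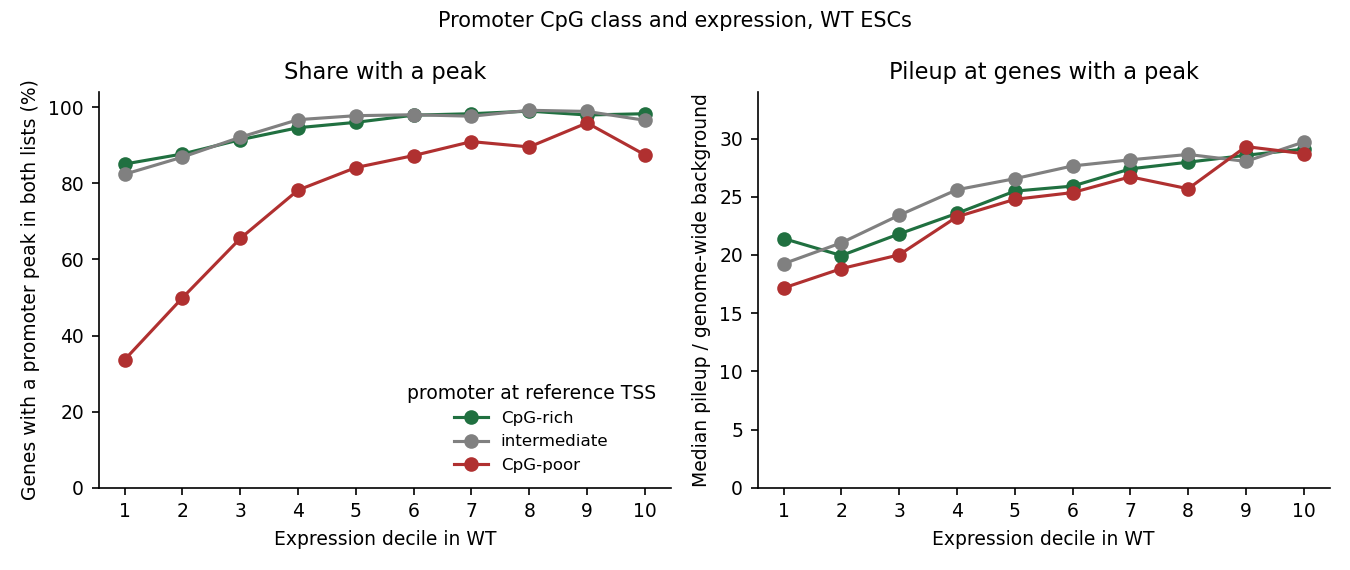
Left, share of genes open in both WT lists (y axis, percent), and right, median pileup at open genes as a multiple of the genome-wide background (y axis), by WT expression decile (x axis) for CpG-rich, intermediate and CpG-poor promoters. In the lowest decile 85.1% of CpG-rich and 33.7% of CpG-poor genes are open, and all 3 classes have higher pileups in the highest decile than in the lowest.

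At open genes of the lowest decile the median pileup was 21.4 times the genome-wide background at CpG-rich and 17.2 at CpG-poor promoters, and in the highest decile the classes lay close together, at 29.1 and 28.7. The order by fold enrichment turned round, from 6.69 at CpG-rich and 7.73 at CpG-poor promoters in the lowest decile to 7.86 and 6.71 in the highest. Expression and pileup had a rho of 0.259 among CpG-rich, 0.283 among intermediate and 0.401 among CpG-poor open genes. With fold enrichment the same values were 0.056, 0.097 and 0.039.

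Short sequence motifs were counted on both strands in the 250 bases before and the first 50 bases from the reference TSS, and their shares describe letters, not bound factors. The GC box GGGCGG stood in 59.9% of all 15199 promoters, in 67.1% of reference TSSs with a peak in both lists and in 28.4% of those without. The TATA box TATAAA went the other way, with 7.93%, 6.39% and 14.6%. The motif CCGGAAG of ETS factors was in 14.9%, 17.4% and 4.16%, and the box CCAAT in 37.9%, 38.8% and 33.9%. The rarer motifs TGACGTCA, GCATGCGC and AAGATGGCG, known from CREB, NRF1 and YY1, were in 3.09%, 4.66% and 2.52% of all promoters. Among genes of the lowest decile the GC box was in 55.5% of promoters with a peak and 19.3% of those without. GC boxes overlap with CpG content by their letters. Of the printed promoters, Actg1, Pou5f1 and Saxo2 hold a GC box, and Actg1 and Saxo2 also hold CCAAT.

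The summit of the promoter peak lay a little upstream of the TSS, and more so at expressed genes. Over 10434 genes open at their reference TSS with both summits within 500 bp of it, the median position was 32 bp upstream, and 63.6% of summits were upstream. Genes of the lowest decile had a median of 3.25 bp upstream, with 50.6% of summits upstream, and in the highest it was 52.5 bp, with 73.3%. Both lists showed this, at medians of -53 and -48 bp in the highest decile and 3 and -4 bp in the lowest. The middle 50% of positions also narrowed, from -77.3 to 137 bp in the lowest decile to -118 to 5 bp in the highest.

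**Figure D4:**
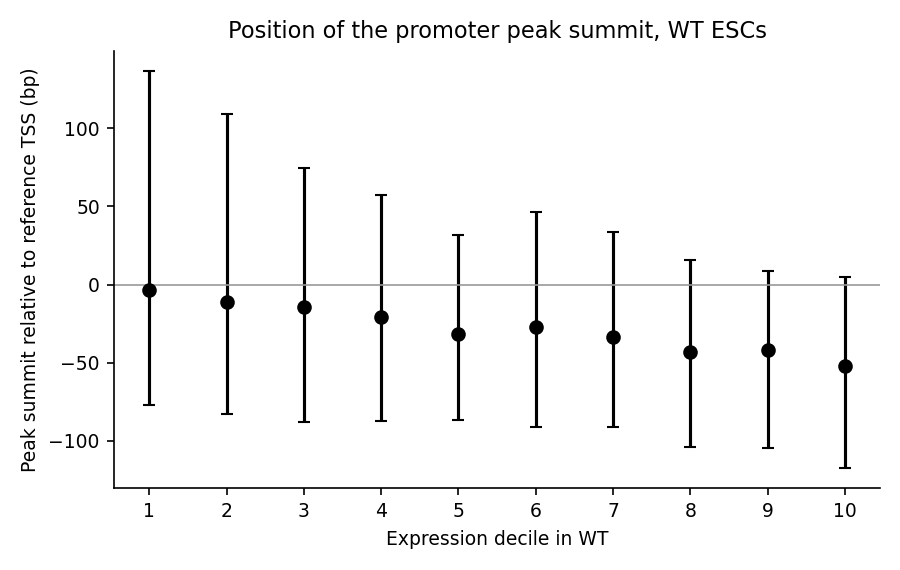
Position of the promoter peak summit relative to the reference TSS (y axis, bp, negative is upstream) by WT expression decile (x axis), as the median (points) and the middle 50% of genes (bars). The median moves from -3.25 bp in the lowest decile to -52.5 bp in the highest.

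Lists of genes from ESC biology were set beside all genes, of which 87.4% were open, and beside the number of open members that the open shares of the members' deciles add up to. Neither comparison was tested. Of 21 pluripotency factors, 17 were open (20.4 from their deciles), 3 had no peak in either list and 1 had a peak in one list only, at a median expression of 140 CPM. Their median fold enrichment was 5.08, against 8.22 over all open genes, at a pileup of 27.5 against 25.8 and a local background of 5.79. Pou5f1, which encodes OCT4, had 820 and 863 CPM and no peak within 500 bp of an annotated TSS. Its nearest peak in both lists was 598 bp from one of them, with pileups of 115 and 87 over local backgrounds 10.9 and 12.7 times the genome-wide level. It reached from -1374 to -648 bp relative to the reference TSS in the first list and from -1369 to -660 bp in the second.

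The partner of OCT4, Sox2 (410 and 428 CPM), was open with fold enrichments of 3.87 and 4.01, and Nanog (311 and 311 CPM) with 3.75 and 3.57. Klf5 had the strongest peak of the list, at 9.49 and 10.5. Dppa3 (17.2 and 15.6 CPM) and Tcl1 (25.7 and 26.5 CPM) were, with Pou5f1, the members without a peak, and Dppa4 had one in the first list only. All 4 genes without a peak in both lists had CpG-poor reference TSSs. Of the 7 CpG-poor genes of the list, Nanog, Lin28a and Dppa5a were open. The peak summits of Lin28a lay 6842 and 6930 bp downstream of the reference TSS that sets its class.

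The 78 cytosolic ribosomal protein genes measured had the highest median expression of the lists, 784 CPM or 425 CPM per kb of exon, with 74 in the highest decile, and 65 (83.3%) were open, against 74.98 from their deciles. Of the rest, 10 had no peak and 3 a peak in one list. At the open ones the median fold enrichment was 4.84, the pileup 26.5 and the local background 4.81. Rps18 had 608 and 628 CPM and its nearest peak 593 bp away, just outside the limit. Rpl30, at 0.463 and 0.198 CPM, fell into the lowest decile with an open CpG-rich promoter (pileups of 81 and 65), and Rpl34 and Rps27 into the third. Counts of this family are uncertain, as said above, and the part of near-identical copies in these low counts was not tested.

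All 17 glycolysis genes measured were open, close to the 16.4 from their deciles, from Gapdh (5926 and 6216 CPM) to the neuronal enolase gene Eno2 (4.76 and 3.96 CPM). Their median fold enrichment was 7.05, their pileup 32.9 and their local background 4.27. Pgk1, on the X chromosome, had fold enrichments of 11.2 and 10.5 at 711 and 740 CPM. At Pkm (3599 and 3769 CPM), which encodes pyruvate kinase, they were 5.12 and 5.36, with pileups of 111 and 83.

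Of 33 Hox genes measured, the patterning genes of the body axis, 17 were open, fewer than the 23.6 from their deciles, and 5 had a peak in one list, at a median of 1.02 CPM with 30 of 33 in the lowest 3 deciles. Open Hox genes had a median fold enrichment of 4.78, a pileup of 18.9 and a local background of 3.67. Hoxc13 was the strongest, with fold enrichments of 7.67 and 9.26 and pileups of 100 and 84 at 1.85 and 1.58 CPM. Hoxd1 had 8.18 and 8.24 at 0.199 and 0.264 CPM.

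Of 43 other developmental transcription factors measured, 30 were open, near the 30.4 from their deciles, 5 had a peak in one list and 8 in neither, at a median of 0.860 CPM. Their median fold enrichment was 4.51, the lowest of the 8 lists, with a local background of 4.36. Gsc, the goosecoid gene of the organizer, had 0.066 and 0.132 CPM and pileups of 52 and 40. Lhx2 (1.19 and 0.528 CPM) and Irx3 (0.860 and 1.85 CPM) both had 103 fragments in the first list, and 80 and 81 in the second, more than the medians of the highest decile. Mesoderm gene T (brachyury, 16.7 and 16.4 CPM) had no peak within 500 bp.

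Germline genes combined a fold enrichment close to that of all open genes (median 8.22) with a low pileup. Of 21 measured 19 were open (17.9 from their deciles) at a median of 4.69 CPM, with a median fold enrichment of 8.25 but a pileup of 13.6, below the median of 18.6 in the lowest decile, and a local background of 1.17. Brdt, a bromodomain gene of spermatocytes, had fold enrichments of 14.6 and 16.5 and pileups of 77 and 63 at 1.19 and 1.58 CPM. Dazl, an RNA-binding protein gene of germ cells, had 14.1 and 13.6. At Slc25a31 the pileups were 31 and 19 and at Tex11 27 and 23, both on a background equal to the genome-wide level.

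**Figure D5:**
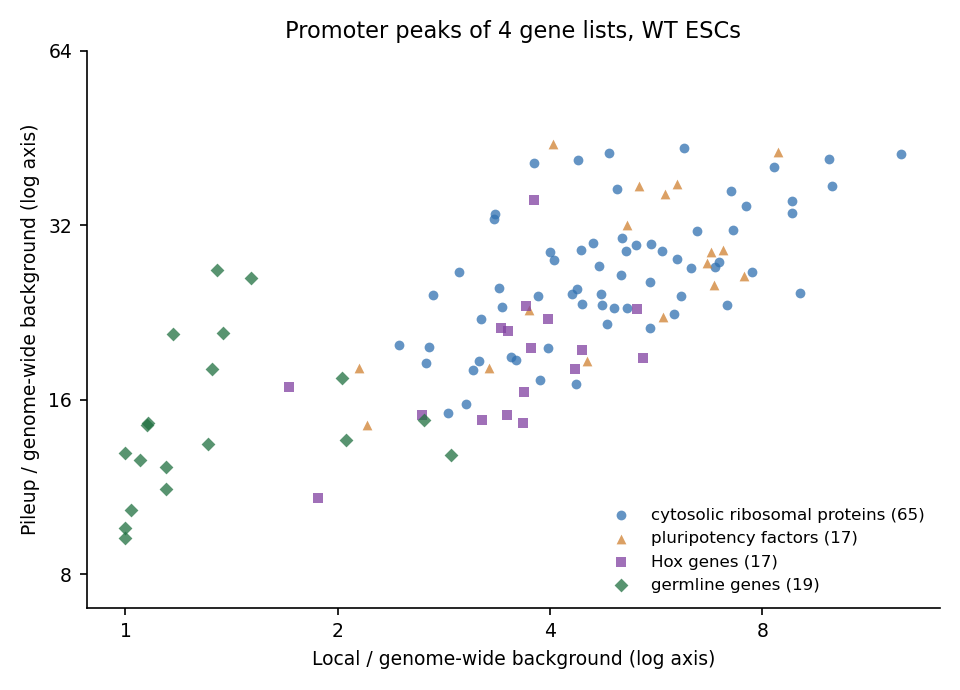
Pileup (y axis) against local background (x axis) of the promoter peak, each as a multiple of the genome-wide background and the mean of both WT lists on log axes, for open genes of 4 lists. Germline genes lie between 1.00 and 2.90 on the x axis, with a median of 1.17. They overlap with Hox genes, which lie at 1.71 and above, and with ribosomal protein and pluripotency genes, which lie at 2.14 and above.

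Of 41 genes of differentiated tissues 22 were in the count table, all 22 CpG-poor, and 7 (31.8%) were open, with 15 in neither list. Their deciles gave 15.2, and CpG-poor genes of the lowest decile were open at 33.7%. The list stood at a median of 0.545 CPM. Its open genes had a median pileup of 13.2, near that of the germline genes, and a local background of 1.47. Cardiac myosin Myh6 had 12.5 and 12.2 CPM and no promoter peak, with its nearest 824 bp from a TSS, and the liver gene Apoa1 had 0.066 CPM in each library and none. The open ones included Krt10 of the skin (fold enrichments of 8.21 and 9.65) and Ptprc of blood cells (8.26 and 11.1), the latter from a peak 439 bp from its TSS.

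Of a list of 12 fibroblast genes, 11 of them CpG-poor, 7 were open, against 10.4 from their deciles. Those without a peak included Col3a1, at 57.1 and 17.3 CPM, Postn, at 19.5 and 7.46 CPM, and Dcn, at 2.65 and 1.06 CPM, with nearest peaks 18092, 205144 and 79706 bp away. These 3 were higher in the first mRNA-seq library than in the second. That did not hold for all fibroblast genes. Twist1, among the fibroblast markers counted above, had 5.82 and 7.00 CPM, and Fn1 was about level. Fn1 (740 and 745 CPM) and Col1a1 (135 and 121 CPM) were open. The part of feeder RNA in any decile was not tested.

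X-linked genes stood apart in peak strength in this male line, which has 1 X chromosome. Of 554 X-linked genes 76.7% were open, against 87.9% of 14635 autosomal genes. In deciles 6 to 10 the shares were 95.8% of 263 and 97.6% of 7334. There the median pileup was 22.2 times the genome-wide background on the X chromosome and 28.2 on autosomes, and the local background 1.83 and 2.95, but the median fold enrichment was higher on the X chromosome, at 9.99 against 8.41. The first list had pileups of 20.1 and 25.02 and the second 25.1 and 31.6, so the order was the same in both.

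The WT shares were set beside those of the mutant lines, read in single libraries with deciles still drawn from WT expression. Of all genes 90.1% and 87.7% had a promoter peak in the WT libraries, 85.0% and 87.0% in Mut18, and 86.5% and 85.5% in Mut43. Both WT libraries lay above all 4 mutant ones, and the means differed by 2.86 percentage points (exact two-sided permutation test over the 15 possible assignments of 6 libraries, p = 0.0667, the smallest this design allows, adjusted p = 0.1 over 3 comparisons). In the lowest decile the WT libraries had 57.6% and 51.4%, and the mutant ones 49.6% to 52.9%. These overlapped, with a difference of 3.14 points (exact permutation p = 0.267, adjusted p = 0.267). In the highest decile the WT libraries had 98.0% and 97.2%, and the mutant ones 95.9% to 97.0%, with a difference of 1.15 points (exact permutation p = 0.0667, adjusted p = 0.1).

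No comparison could pass 0.05 with 2 libraries against 4. The test also treats the libraries of a line as independent, so its p describes libraries and does not measure the spread between lines of a genotype. The genome-wide background, which rises with the number of reads in a library, was 3.36 in the first WT list and 2.01 to 2.28 in the other 5. Without that WT library the difference over all genes was 1.69 points, and that in the lowest decile 0.033 points. With each list reduced to the same number of peaks, the differences were 1.96 points for all genes, 0.809 for the lowest decile and 0.839 for the highest.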

How the data were processed

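For mRNA-seq the deposited table holds raw read counts per gene, and for ATAC-seq the authors gave 1 peak list per library, with the ratio of signal over local background (fold enrichment), a -log10 p and a -log10 q of at least 6 for each peak, as deposited. The submitters' processing notes name mm10, STAR, Bowtie2 2.3.4.2, SAMtools, DESeq2, MACS2 and deepTools 3.3.0, without roles. Other samples were not analysed here.

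Symbols were matched to GENCODE vM21 (GRCm38), 14739 directly, 440 by an older symbol and 20 to the lowest of several identifiers. The others were not protein-coding (911), unmatched (149) or repeated (4). All 78800 TSSs were used, and the reference TSS was the most upstream start of the principal transcripts. Pileup and local background were solved for from fold enrichment and -log10 p (Poisson upper tail), within 0.001 for 100% of peaks. Scripts were tested on made-up data with known answers. Python 3.11.15, pandas 2.3.3, numpy 2.4.6, scipy 1.17.1 and, for TMM library sizes, edgeR 4.0.16 in R 4.3.3 were used.

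The members, gene lists and tests were chosen with earlier results of these data known. Genes named were members of 8 lists and the 5 highest or lowest by the rules stated beside them. The rank groups, printed promoters and nearby backgrounds were chosen after values were seen, as were 3 alternatives (pileup, no close neighbours, another TSS for the CpG class). The other alternatives were windows, starts, thresholds, peak numbers, summits, expression scales, filters, single libraries and a replicate block. A few items withheld for evaluation are not reported here.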

Additional observations from a re-analysis of the deposited data

How the results depend on the processing

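The open share was lower in the lowest expression decile than in the highest under every alternative run. With a window of 250 bp the shares of all genes, the highest decile and CpG-rich genes of the lowest decile were 85.6%, 96.3% and 79.9%. With 1000 bp, all genes, the lowest and the highest decile had 89.2%, 55.9% and 97.9%, CpG-rich genes of the lowest decile 91.8% and CpG-poor genes of the highest 90.9%. With 1 reference TSS the first 3 shares were 81.2%, 42.4% and 93.3%, and CpG-poor genes of the highest decile had 47.7%. A peak in at least 1 list gave 90.3%, 58.2% and 98.1%, with 92.5% and 90.9% for the CpG classes. With summits within 500 bp, all genes had 84.0%, the highest decile 94.7%, and the CpG classes 76.9% and 84.1%. Genes of at least 1 CPM, with deciles drawn again, had 93.7%, 76.6% in the lowest decile and 90.9% among its CpG-rich genes. Ranking by CPM per kb put the lowest decile at 59.1%. Genes without close neighbours were open at 85.6%. CpG content in 250 bp to each side gave 90.6%, and the TSS with the most CpG 71.9%, for CpG-poor genes of the highest decile.

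The rho of expression and fold enrichment stayed between 0.013 and 0.091. It was 0.049 at 250 bp, 0.067 at 1000 bp, 0.053 with 1 TSS, 0.091 with a peak in at least 1 list, 0.045 with equal numbers of peaks, 0.043 at a -log10 q of at least 10, 0.051 for summits, 0.024 per kb, 0.013 above 1 CPM and 0.066 without close neighbours. The ratio of median fold enrichment, highest to lowest decile, was 1.06, and 1.05, 1.07, 1.10, 1.04, 1.04 and 1.07 at 250 bp, 1000 bp, at least 1 list, equal peaks, the stricter q and without close neighbours. It fell below 1 per kb (0.983) and above 1 CPM (0.985), so its direction depended on the expression scale and filter. With the pileup in place of fold enrichment, rho was 0.331 and the ratio 1.57, for peaks at any annotated TSS only.

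Leaving out 1 library at a time gave 87.7% to 90.1% for all genes, 49.1% to 57.6% for the lowest decile, 97.0% to 98.0% for the highest, a rho of 0.054 to 0.074, a ratio of 1.03 to 1.08, and 84.9% to 92.5% and 87.5% to 90.9% for the CpG classes. The WT minus mutant difference kept its sign, at 1.69 to 4.03 points for all genes, 0.033 to 6.24 for the lowest decile and 0.724 to 1.58 for the highest. For the highest decile it was 2.04 points at 250 bp, 2.24 with 1 TSS and 0.658 at 1000 bp, against 1.15, and for the lowest 0.809 with equal numbers of peaks, against 3.14. With a replicate block, the exact permutation p of that difference was 0.111 at 2.86 points, the smallest that 9 arrangements allow. The numbers did not pair the libraries, whose deviations from their group means had correlations of -0.068, 0.058 and -0.052 between lines. The peak lists hold nothing outside called peaks, so accessibility at genes without a peak was not measured, and 2 libraries per assay bound every statement on spread.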
